A study of Mus musculus with 25 samples.

Results

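Forkhead factors are transcription factors that share a winged-helix DNA-binding domain. Of this family, the genes and open chromatin sites of 9 members were described here in the mouse pancreatic endocrine lines αTC1 and βTC6: Foxa1, Foxa2, Foxa3, Foxo1, Foxo3, Foxp1, Foxp2, Foxp4 and Foxm1. Members were chosen by gene symbol. In RNA-seq they were 9 of 24439 genes, of which 8 were among the 12195 genes tested (Foxa1 was not). In ATAC-seq they were the 107 of 65053 consensus peaks whose nearest transcription start site (TSS), by the authors' annotation, belonged to a member. αTC1 (alpha TC1 clone 6) is a glucagon-producing line and a single clone, and βTC6 (beta-TC-6) is an insulin-producing line. Both are immortalized tumour lines grown in different media, so a difference between the lines and an effect of the medium cannot be told apart, and neither line was treated.

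ATAC-seq, which reads where a transposase can cut open chromatin, was done on 5 replicates of pure αTC1, 5 of pure βTC6 and 9 mixtures holding 10% to 90% αTC1 cells in steps of 10%. RNA-seq was done on 3 replicates of each line. Nothing in the sources used here says that replicates came from separate cultures, so p-values measure only the spread between these libraries, which may be technical. RNA-seq libraries held 21795367 to 25876765 expected counts, pure ATAC-seq libraries 4397851 to 10374903 reads in peaks and mixtures 5277983 to 7294832. The labels were checked against islet markers. The glucagon gene Gcg had 12113 to 14406 FPKM in αTC1 and 172 to 267 FPKM in βTC6, and all 7 beta cell markers were higher in βTC6, the insulin gene Ins2 at 23541 to 35748 FPKM. Of 6 alpha cell markers 5 were higher in αTC1 and Ttr was called in neither direction (log2 fold change 0.48, edgeR adjusted p = 0.215). βTC6 also held the delta cell hormone Sst at 207 to 325 FPKM, while the other delta cell marker, Hhex, was at 0 to 0.02 FPKM in βTC6 and 0.06 to 0.13 FPKM in αTC1, and it held the PP cell hormone Ppy at 3.70 to 50.8 FPKM. Summed FPKM of the acinar, ductal, endothelial, leukocyte and fibroblast marker lists stayed at or below 4.42 in every library. In the bulk libraries, fewer cells of a type and less RNA per cell cannot be told apart. Among the αTC1 RNA-seq libraries, replicates 1 and 2 differed least (chi-square per degree of freedom 2.42) and replicate 3 stood apart from both (29.2 and 30.4), and the same measure was 19.0 to 41.2 among the βTC6 libraries. In ATAC-seq, replicates 1 to 3 of a line differed from each other by 2.06 to 2.54 and from replicates 4 and 5 by 4.39 to 10.6, and replicate 4 differed from replicate 5 by 4.53 in αTC1 and 8.38 in βTC6.

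FoxA factors bind nucleosomal DNA and open it for other regulators, and Foxa1 and Foxa2 are needed for pancreas formation and for hormone processing and secretion in islets. FoxO factors are moved out of the nucleus when insulin signalling activates Akt, and switch on stress, cell cycle arrest and metabolic genes. FoxP factors act mostly as repressors that pair with each other, and Foxp1, Foxp2 and Foxp4 are all present in islets, where they are known for alpha cell growth. Foxm1 drives the genes of mitosis and is known for beta cell proliferation.

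By RNA-seq, 6 of the 8 tested members differed between the lines at an FDR under 5% (edgeR quasi-likelihood test, Benjamini-Hochberg adjusted over all genes tested). Foxa3, Foxp2 and Foxp4 were higher in βTC6, and Foxp1, Foxm1 and Foxo1 were higher in αTC1, while Foxa2 and Foxo3 passed in neither direction. The 3 calls in each direction were 37.5% of the tested members, beside 38.7% of all tested genes that were higher in βTC6 and 36.0% higher in αTC1, so the members' share was close to the background. With an added limit of an absolute log2 fold change over 2, Foxa3 alone was called (12.5% of the tested members), beside 10.2% of genes higher in βTC6 and 4.08% higher in αTC1. Here and below log2 fold changes are βTC6 over αTC1, with their standard error (SE).

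**Figure D1:**
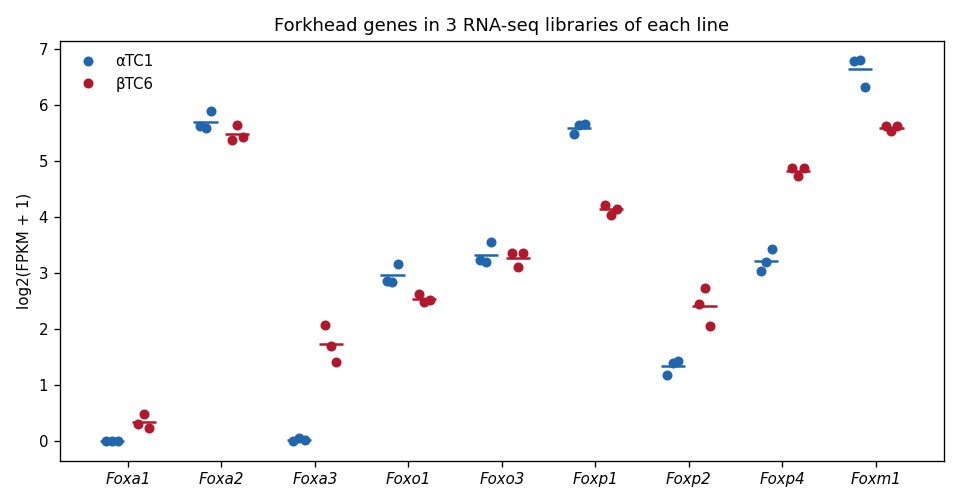
Expression of the 9 forkhead genes as log2(FPKM + 1), 1 point per RNA-seq library (3 αTC1 in blue, 3 βTC6 in red) and a bar at the mean of each line. The points of the lines do not overlap for Foxa1, Foxa3, Foxo1, Foxp1, Foxp2, Foxp4 and Foxm1, and overlap for Foxa2 and Foxo3.

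The order of the levels differed between the lines. In αTC1, mean FPKM fell in the order Foxm1, Foxa2, Foxp1, Foxo3, Foxp4, Foxo1, Foxp2, Foxa3 and Foxa1, from 100.4 to 0. The libraries of Foxa2 and Foxp1 overlapped in range, as did those of Foxo3 with Foxp4, Foxp4 with Foxo1, and Foxa3 with Foxa1. In βTC6 the order was Foxm1, Foxa2, Foxp4, Foxp1, Foxo3, Foxo1, Foxp2, Foxa3 and Foxa1, from 47.7 to 0.273. There the ranges overlapped between Foxm1 and Foxa2, Foxo1 and Foxp2, and Foxp2 and Foxa3. FPKM is scaled by transcript length, so these levels can be set side by side.

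Foxa2 (ENSMUSG00000037025, chr2:147868613-147872705, minus strand, NCBIM37/mm9) was the main FoxA gene of both lines. Its level was 48.4, 47.4 and 59.1 FPKM in the αTC1 replicates and 40.9, 49.3 and 42.5 FPKM in the βTC6 replicates. The groups overlapped, with the highest value in αTC1 replicate 3. The log2 fold change was -0.13 (SE 0.11, adjusted p = 0.301), and -0.03 without that library. It made up 99.96% ± 0.0425 of the summed FoxA FPKM in αTC1 against 94.3% ± 1.87 in βTC6 (SD, n = 3).

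Foxa3 (ENSMUSG00000040891, chr7:19598631-19608887, minus strand), best known as a liver FoxA gene, was read in βTC6 and nearly absent in αTC1. It had 3.22, 2.27 and 1.68 FPKM in βTC6 and 0, 0.04 and 0.02 FPKM in αTC1. All 3 βTC6 libraries lay above all αTC1 libraries. The counts were 169, 120 and 84 against 0, 2 and 1, that is 373 against 3, and the ratio scaled to library size was 121 with an exact 95% counting interval of 41.1 to 589. The interval covers counting error only. The edgeR log2 fold change was 6.75 (SE 0.53, adjusted p = 3.64e-06), between 6.26 and 7.58 when a library was left out. The highest of these was without αTC1 replicate 2, since the αTC1 level rests on 3 reads.

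Foxa1 (ENSMUSG00000035451, chr12:58641618-58647108, minus strand) was under the expression limit (every replicate of 1 of the lines at 1 FPKM or more) and was not tested under it. Its counts were 20, 33 and 14 in βTC6 (0.24, 0.4 and 0.18 FPKM) and 0 in each αTC1 library. Against a floor of 3 counts per αTC1 library it was at least 7.20-fold higher in βTC6. With the expression limit lifted, edgeR gave an adjusted p of 9.74e-05. The 3 genes whose log2(FPKM + 1) over the 6 libraries lay nearest to that of Foxa3, the member with the largest fold change, were Otop3, Zkscan16 and Tph1, with root mean square differences of 0.0659, 0.0693 and 0.0824.

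Of the FoxO members, Foxo1 was 1.36-fold higher in αTC1 and Foxo3 was called in neither direction. Of the FoxO genes that are no members, Foxo4 was higher in αTC1 (10.6 against 7.78 FPKM) and Foxo6 higher in βTC6 (4.69 against 2.29 FPKM). With ERCC spike-in scaling the Foxo6 call was lost, since 0 of 11 tested Fox genes outside the members were called higher in βTC6. Foxo1 (ENSMUSG00000044167, chr3:52072259-52154031, plus strand), which holds back beta cell growth and keeps beta cell identity under stress, had 6.3, 6.24 and 8.04 FPKM in αTC1 and 5.18, 4.65 and 4.74 FPKM in βTC6. The groups did not overlap, and the log2 fold change was -0.44 (SE 0.12, adjusted p = 0.00726). Scaled to the ERCC spike-in RNA in place of TMM, the value was -0.46 and the adjusted p 0.461, so the call was lost. Foxo3 (ENSMUSG00000048756, chr10:41901647-41996561, minus strand), a close relative, had 8.45, 8.26 and 10.8 FPKM in αTC1 and 9.27, 7.66 and 9.31 FPKM in βTC6. Its groups overlapped. The log2 fold change was -0.04 (SE 0.12, adjusted p = 0.788), and it was 0.10 without αTC1 replicate 3.

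Foxp1 was the leading FoxP gene of αTC1 and Foxp4 that of βTC6. Foxp1 (ENSMUSG00000030067, chr6:98875332-99216526, minus strand) had 44.0, 49.2 and 49.9 FPKM in αTC1 and 17.8, 15.5 and 16.8 FPKM in βTC6. The lowest αTC1 library was above the highest βTC6 library, and the log2 fold change was -1.55 (SE 0.07, adjusted p = 1.28e-07), a 2.94-fold higher level in αTC1. Foxp4 (ENSMUSG00000023991, chr17:48004082-48061594, minus strand) went the other way, with 7.23, 8.23 and 9.89 FPKM in αTC1 and 28.3, 25.7 and 28.4 FPKM in βTC6. It was 3.29-fold higher in βTC6 (log2 fold change 1.72, SE 0.11, adjusted p = 1.11e-06), and the groups did not overlap. Foxp2 (ENSMUSG00000029563, chr6:14851349-15391977, plus strand), known from speech and motor circuits, was the lowest of the 3 FoxP members in both lines, at 1.29, 1.63 and 1.7 FPKM in αTC1 and 4.5, 5.66 and 3.17 FPKM in βTC6. All βTC6 libraries were above all αTC1 libraries, and the log2 fold change was 1.90 (SE 0.21, adjusted p = 3.75e-05). Without βTC6 replicate 3, the lowest of them, it was 2.09, past the limit of 2.

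Summed over Foxp1, Foxp2 and Foxp4, the FPKM was 57.7 ± 4.66 in αTC1 against 48.6 ± 1.92 in βTC6 (SD, n = 3). Foxp1 made up 82.7% ± 1.39 of that sum in αTC1 and 34.3% ± 1.08 in βTC6 (SD, n = 3). Foxp4 made up 14.6% ± 1.29 and 56.5% ± 2.00, and Foxp2 2.66% ± 0.176 and 9.18% ± 2.78 (SD, n = 3). These shares restate the FPKM values above and were not tested.

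**Figure D2:**
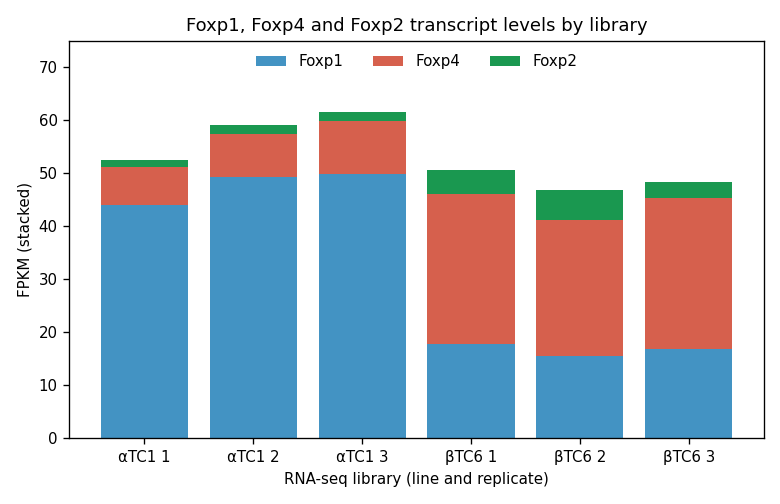
Stacked FPKM of Foxp1 (blue), Foxp4 (red) and Foxp2 (green) in each of the 3 αTC1 and 3 βTC6 RNA-seq libraries. The stacks reach 52.5 to 61.5 FPKM in αTC1 and 46.8 to 50.6 FPKM in βTC6, mostly Foxp1 in αTC1 and mostly Foxp4 in βTC6.

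Foxm1 (ENSMUSG00000001517, chr6:128312985-128325911, plus strand) had the highest mean of the members in both lines, with a range that overlapped that of Foxa2 in βTC6. It had 109.6, 111.8 and 79.9 FPKM in αTC1 and 48.9, 45.8 and 48.6 FPKM in βTC6. Replicate 3 was the lowest αTC1 library and still above all βTC6 libraries. Foxm1 was 2.02-fold higher in αTC1 (log2 fold change -1.01, SE 0.13, adjusted p = 9.04e-05), and -1.16 without αTC1 replicate 3. Under ERCC scaling the value was -1.04 and the edgeR adjusted p 0.0476, close to the limit. Foxp1, Foxp2 and Foxm1 all lie on chromosome 6, where the median log2 fold change over the 578 other tested genes was -0.76, beside 0.01 over all 12195 tested genes. The part of that shift in the Foxp1 and Foxm1 values was not tested. Foxp2 went against it.

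The genes that act with these factors were described by lists of genes, counted at the same FDR, at which 38.7% of all tested genes were higher in βTC6 and 36.0% higher in αTC1. Scaled to the ERCC spike-in RNA, 17.5% of all tested genes were higher in βTC6 and 11.8% higher in αTC1, and the ERCC counts of each list are to be read beside these shares. Of 11 other Fox genes that passed the expression limit, 7 were higher in αTC1 and 3 higher in βTC6, and under ERCC scaling 3 passed, all higher in αTC1. The forkhead gene Foxf2 had 21.0 ± 2.65 FPKM in αTC1 and 3.47 ± 2.22 FPKM in βTC6 (SD, n = 3), and Foxd2 9.45 ± 1.98 and 2.93 ± 0.630 FPKM (SD, n = 3). Foxn3, a checkpoint-linked repressor, was lower in βTC6 by a log2 fold change of -1.18 and Foxk2 by -0.75.

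Of 17 islet genes linked to FoxA in islets, 9 were higher in βTC6, 4 higher in αTC1 and 4 in neither, with a median log2 fold change of 0.74. Under ERCC scaling 8 and 2 passed. Pdx1, a beta cell regulator with FoxA sites in its enhancers, was at 104 to 120 FPKM in βTC6 and 0 in every αTC1 library. Hnf4a had 11.9 ± 3.74 FPKM in βTC6 and 0.00333 ± 0.00577 FPKM in αTC1 (SD, n = 3), and the prohormone convertase Pcsk1 84.8 ± 38.3 and 0.153 ± 0.0950 FPKM (SD, n = 3). Gcg was higher in αTC1. This list holds genes that define the lines themselves.

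Of 22 FoxO regulators, 9 were higher in βTC6, 7 higher in αTC1 and 6 in neither, and the median log2 fold change was 0.04. Under ERCC scaling 3 of the 22 passed in each direction, beside 17.5% and 11.8% of all tested genes. The kinase Sgk1, which phosphorylates FoxO3, had 332 ± 13.8 FPKM in αTC1 and 4.23 ± 0.866 FPKM in βTC6 (SD, n = 3). Its relative Sgk3 was also higher in αTC1 (12.8 against 4.08 FPKM) and Sgk2 higher in βTC6 (18.0 against 5.76 FPKM). The growth factor receptor gene Igf1r was at 4.73 to 6.5 FPKM in βTC6 and at 0 to 0.02 FPKM in αTC1.

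Of 14 tested FoxO targets, 11 were higher in αTC1, 1 in βTC6 and 2 in neither, with a median log2 fold change of -1.03. Under ERCC scaling 8 were higher in αTC1, where 11.8% of all tested genes were, and 1 in βTC6, where 17.5% were, at a median of -1.05. The insulin receptor substrate Irs2 had 98.2 ± 2.56 FPKM in αTC1 and 21.4 ± 0.253 FPKM in βTC6 (SD, n = 3), the damage-induced gene Gadd45a 274 ± 2.04 and 55.7 ± 3.88 FPKM, and the thioredoxin inhibitor Txnip 87.4 ± 8.83 and 15.5 ± 4.32 FPKM (SD, n = 3). Klf15, a metabolic regulator, had 7.02 to 8.82 FPKM in αTC1 and 0.06 to 0.14 FPKM in βTC6. Catalase (Cat) was the target higher in βTC6, at 2.26 against 0.267 FPKM.

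Of 11 FoxP corepressor genes, 4 were higher in αTC1, 2 in βTC6 and 5 in neither, with a median log2 fold change of -0.10. Under ERCC scaling 2 passed, both higher in αTC1. The corepressor Ctbp2 was higher in αTC1, at 31.0 ± 1.71 against 13.6 ± 1.12 FPKM (SD, n = 3), as were the NuRD subunits Chd4 (122 against 75.0 FPKM) and Gatad2b (20.0 against 11.8 FPKM). Other NuRD subunits did not share that direction, since the deacetylase genes Hdac1 (68.1 against 83.5 FPKM) and Hdac2 (70.6 against 94.3 FPKM) were higher in βTC6, and Mta1, Mta2 and Gatad2a were called in neither.

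Of 22 Foxm1 targets and other genes of mitosis, 15 were higher in αTC1, 2 in βTC6 and 5 in neither, with a median log2 fold change of -0.41. The kinetochore genes Cenpf and Bub1b had log2 fold changes of -1.71 and -1.25, the phosphatase Cdc25b -0.96 and the kinesin Kif20a -0.86. Aurkb and Ccnb2 were higher in βTC6 by 0.80 and 0.74. Under ERCC scaling 2 of the 22 passed, both higher in αTC1, at a median of -0.42, and 3566 of all tested genes passed in place of 9102.

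**Figure D3:**
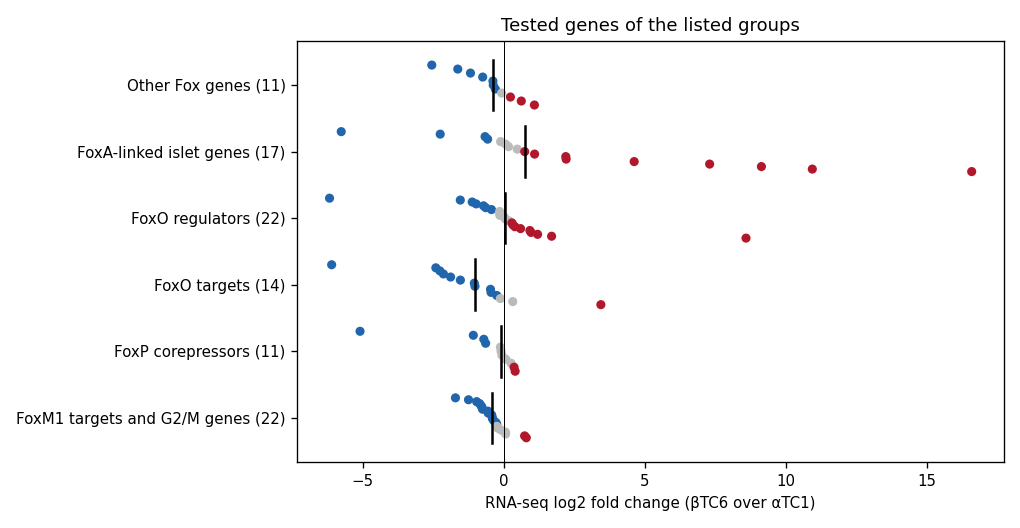
RNA-seq log2 fold change (βTC6 over αTC1) of each tested gene in 6 lists, with the number tested in brackets, red where higher in βTC6 and blue where higher in αTC1 at an FDR under 5%, grey in neither, and a black bar at the list median. FoxO targets lie mostly to the left (median -1.03), and Pdx1, the rightmost point, had 0 FPKM in αTC1, so its position has no fixed scale.

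In ATAC-seq, 86 of the 107 peaks nearest to a member differed between the pure lines at an FDR under 5% (limma on log2 of the TMM-normalized read count plus 1, adjusted over all peaks). Of these 38 were higher in βTC6 (35.5%, beside 39.9% of all 65053 peaks) and 48 higher in αTC1 (44.9%, beside 38.1%). With an absolute log2 fold change over 2 as well, 5 were higher in βTC6 (4.67%, beside 12.9% of all peaks) and 11 higher in αTC1 (10.3%, beside 5.38%). These counts changed with the setting. They were 9 and 14 with a pseudocount of 0.5, 1 and 2 with a pseudocount of 5, and 15 and 16 with edgeR on recovered reads. Member peaks were mostly distal, with 94 of 107 (87.9%) at least 2 kb from the TSS, beside 77.6% of all peaks. By the centre of the peak, 63 lay in introns, 33 between genes, 9 in UTR exons and 2 in other exons. The ranges of the lines did not overlap in 70 of the 107 (65.4%), beside 63.9% of all peaks, so this share was close to the background.

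**Figure D4:**
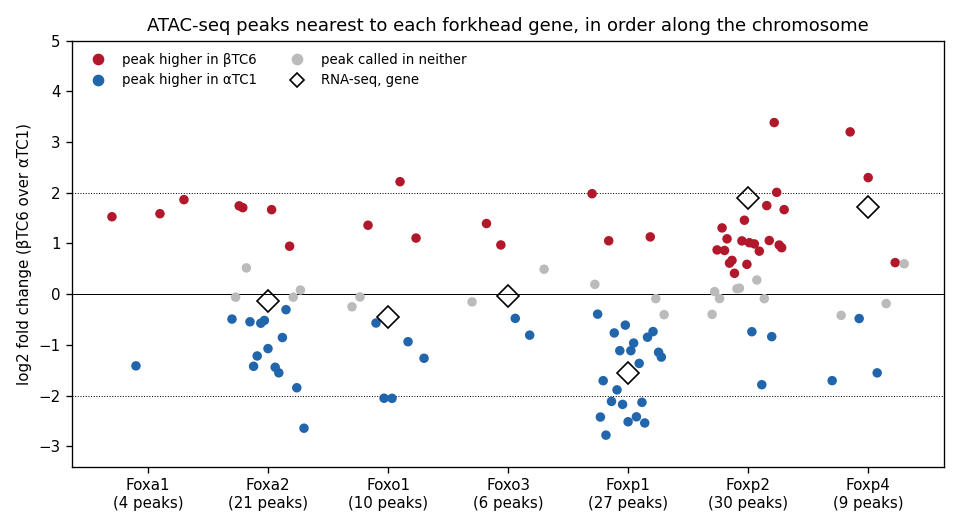
ATAC-seq log2 fold change (βTC6 over αTC1) of all 107 peaks nearest to a forkhead gene, by gene and in order along the chromosome, red or blue where higher in βTC6 or αTC1 at an FDR under 5% and grey in neither. Open diamonds give the RNA-seq log2 fold change and dotted lines the limit of 2. Most Foxp1 peaks lie below 0 (21 of 27 higher in αTC1) and most Foxp2 peaks above it (20 of 30 higher in βTC6).

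Windows of 200 bases at peak centres show the DNA of these sites on the plus strand of mm9. They are, for each member with a peak past the limit, the one with the largest fold change, the others past it that held a searched motif, and the Foxa1 peak nearest its start. Capitals mark TGTTTAC and TATTTAC, which are forkhead letters, and TAATTA, a homeodomain core, on either strand. Windows touching an annotated UTR are not shown, which leaves out the Foxp2 peak with the largest fold change.
Foxa1 site, chr12:58647552-58647751, plus strand: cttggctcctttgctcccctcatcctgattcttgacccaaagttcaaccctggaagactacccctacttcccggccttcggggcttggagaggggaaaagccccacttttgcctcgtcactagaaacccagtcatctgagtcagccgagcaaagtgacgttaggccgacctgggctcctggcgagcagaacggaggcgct
Foxa2 site, chr2:148014638-148014837, plus strand: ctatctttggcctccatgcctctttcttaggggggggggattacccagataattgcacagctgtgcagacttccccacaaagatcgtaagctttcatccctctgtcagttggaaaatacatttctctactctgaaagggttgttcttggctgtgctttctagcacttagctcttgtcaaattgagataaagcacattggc
Foxo1 site, chr3:52105771-52105970, plus strand: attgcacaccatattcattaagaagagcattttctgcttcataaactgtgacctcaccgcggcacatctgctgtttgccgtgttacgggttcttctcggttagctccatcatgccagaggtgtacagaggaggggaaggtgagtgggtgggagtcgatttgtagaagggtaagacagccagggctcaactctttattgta
Foxp1 site, chr6:98717924-98718123, plus strand: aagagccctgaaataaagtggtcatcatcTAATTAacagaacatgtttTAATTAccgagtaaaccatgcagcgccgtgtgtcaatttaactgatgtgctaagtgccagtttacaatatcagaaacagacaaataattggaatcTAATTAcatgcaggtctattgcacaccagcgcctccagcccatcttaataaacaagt
Foxp1 site, chr6:98819917-98820116, plus strand: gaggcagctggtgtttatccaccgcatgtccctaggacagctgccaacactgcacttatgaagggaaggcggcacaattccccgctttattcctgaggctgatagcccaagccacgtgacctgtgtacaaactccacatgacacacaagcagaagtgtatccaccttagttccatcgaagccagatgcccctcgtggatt
Foxp1 site, chr6:98961943-98962142, plus strand: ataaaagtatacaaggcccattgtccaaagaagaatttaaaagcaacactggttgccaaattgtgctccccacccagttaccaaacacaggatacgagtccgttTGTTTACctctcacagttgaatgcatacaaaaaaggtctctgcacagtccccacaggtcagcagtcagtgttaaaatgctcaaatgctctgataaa
Foxp1 site, chr6:99309604-99309803, plus strand: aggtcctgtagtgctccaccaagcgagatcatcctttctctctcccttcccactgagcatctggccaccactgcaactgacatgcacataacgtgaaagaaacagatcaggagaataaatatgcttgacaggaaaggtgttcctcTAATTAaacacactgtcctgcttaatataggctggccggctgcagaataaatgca
Foxp2 site, chr6:15361604-15361803, plus strand: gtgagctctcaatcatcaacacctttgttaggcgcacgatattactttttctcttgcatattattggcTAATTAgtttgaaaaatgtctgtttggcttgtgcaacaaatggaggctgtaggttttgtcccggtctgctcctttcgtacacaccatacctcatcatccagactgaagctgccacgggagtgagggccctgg
Foxp4 site, chr17:48046357-48046556, plus strand: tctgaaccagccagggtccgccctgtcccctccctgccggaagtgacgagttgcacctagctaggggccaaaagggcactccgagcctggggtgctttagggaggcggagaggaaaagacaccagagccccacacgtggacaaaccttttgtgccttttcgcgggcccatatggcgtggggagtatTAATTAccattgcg

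TGTTTAC or TATTTAC stood in 17 of the 107 member windows (15.9%), beside 10.5% of the windows of all 65053 peaks. They were in 11 of the 48 member peaks higher in αTC1 (22.9%), in 1 of the 38 higher in βTC6 (2.63%) and in 5 of the 21 called in neither (23.8%). Median GC was 48.5% in the first set, 42.5% in the second and 48.5% over all peaks. TAATTA stood in 10 member windows (9.35%), beside 6.93% of all peaks, and in 3 of the 5 past the fold limit for βTC6 and 2 of the 11 past it for αTC1. Forkhead letters stood in 0 of those 5 and 1 of those 11 (9.09%). A match is letters only, and these shares were not tested. The shares over all peaks higher in each line were not computed. Over the genome, the study reports Fox motifs enriched in αTC1-specific peaks and motifs of homeobox factors such as Pdx1 in βTC6-specific peaks. A difference between the lines at large and one of the member peaks therefore cannot be told apart here.

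The Foxp1 locus held 27 peaks over chr6:98643165-99484788, of which 21 were higher in αTC1, 3 higher in βTC6 and 3 in neither. Its peaks held 799 ± 6.60 normalized reads in sum in αTC1 and 303 ± 16.2 in βTC6 (SD, n = 5). The median log2 fold change was -1.12, beside -0.79 over all 4291 peaks of chromosome 6 and -0.45 over the 176 other peaks within 2 Mb. Their part in the result was not tested. All 8 peaks past the fold limit were higher in αTC1, and 23.9% of the 176 other peaks within 2 Mb were past it. Of the 27, 11 lay in introns of a long transcript of the upstream gene Eif4e3, which was read at 0 to 0.06 FPKM in the 6 libraries. By the authors' annotation some of these 11 also lay downstream of a Foxp1 TSS.

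The strongest Foxp1 site was chr6:98819623-98820409, between genes and 158276 bp downstream of the nearest Foxp1 TSS, past the 3′ end of Foxp1. It held 109, 99.0, 97.7, 109 and 137 normalized reads in αTC1 replicates 1 to 5 and 12.6, 13.5, 16.5, 14.7 and 18.8 in βTC6. All αTC1 libraries were far above all βTC6 libraries, and αTC1 replicate 5 was the highest. The log2 fold change was -2.78 (SE 0.11, adjusted p = 8.34e-14), and -2.76 in replicates 1 to 3 and -2.81 in replicates 4 and 5. Next to it in height was chr6:99225533-99226765, in an intron of Eif4e3 and 9640 bp upstream of a Foxp1 TSS. It held 88.7, 85.0, 91.4, 88.8 and 91.4 normalized reads in αTC1 and 16.6, 12.7, 14.9, 17.7 and 17.8 in βTC6, with no overlap (log2 fold change -2.42, SE 0.10, adjusted p = 7.32e-14).

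The other 6 sites past the limit ran from -2.12 to -2.54. Inside Foxp1 introns these were chr6:98961667-98962417 at 40.0 ± 4.64 against 8.52 ± 1.51 normalized reads, chr6:99051318-99052080 at 39.0 ± 2.34 against 8.24 ± 2.60, and chr6:99121917-99122177 at 11.05 ± 2.42 against 1.09 ± 0.347 (αTC1 against βTC6, SD, n = 5). In Eif4e3 introns they were chr6:99309376-99310030 at 29.0 ± 1.56 against 5.87 ± 0.923 and chr6:99317906-99318493 at 19.8 ± 3.59 against 2.62 ± 0.901. By the authors' annotation both also lay downstream of a Foxp1 TSS, by 75636 and 67139 bp. The last, chr6:98717738-98718308, lay 260269 bp downstream of the nearest Foxp1 TSS at 13.03 ± 3.20 against 1.61 ± 0.613. In none of them did the lines overlap. The site chr6:99051318-99052080 was under the limit of 2 in replicates 1 to 3 (-1.96) and without βTC6 replicate 5 (-1.95). The peak nearest a Foxp1 TSS, chr6:98977692-98978905 over a UTR exon, differed less, at 31.6 ± 3.95 against 18.3 ± 3.52 normalized reads (log2 fold change -0.77, SE 0.13, adjusted p = 2.29e-05).

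The Foxp2 locus was the reverse of Foxp1 on the same chromosome. Of its 30 peaks, 20 were higher in βTC6, 3 higher in αTC1 and 7 in neither, at a median log2 fold change of 0.85, while the 124 other peaks within 2 Mb had a median of 0.42. Past the fold limit were 2 of the 30, beside 15.3% of those 124. The site with the largest fold change, chr6:15347329-15347971, centred on a UTR exon 212144 bp downstream of the nearest annotated start, which lies inside the gene. It held 29.4, 31.0, 26.6, 26.3 and 27.5 normalized reads in βTC6 and 1.68, 2.39, 1.35, 2.05 and 1.59 in αTC1. The groups were wide apart, and the log2 fold change was 3.38 (SE 0.16, adjusted p = 7.04e-13). The neighbouring site chr6:15361119-15362287, on an exon of Foxp2, held 35.5 ± 5.09 in βTC6 and 8.22 ± 2.07 in αTC1 (log2 fold change 2.01, SE 0.16, adjusted p = 4.9e-10). It was under the limit of 2 in replicates 4 and 5 (1.82) and without αTC1 replicate 2 (1.87), αTC1 replicate 3 (1.99) or βTC6 replicate 2 (1.94). The broad peak at the first Foxp2 start, chr6:14849994-14852481, was among the 3 strongest member peaks and open in both lines, at 114, 114, 117, 116 and 115 normalized reads in αTC1 and 116, 111, 112, 125 and 134 in βTC6. The lines overlapped there (log2 fold change 0.05, SE 0.08, adjusted p = 0.575), but after quantile normalization it was called higher in βTC6 at 0.55. In replicates 1 to 3 its value was -0.03. The peak closest to an annotated start, chr6:15135434-15135683, also overlapped, at 6.57 ± 1.33 and 7.23 ± 2.12 (log2 fold change 0.11, SE 0.20, adjusted p = 0.644).

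At Foxp4, 3 of 9 peaks were higher in βTC6, 3 in αTC1 and 3 in neither, and the summed reads of the lines overlapped, at 93.6 ± 4.02 in αTC1 and 91.4 ± 11.02 in βTC6 (SD, n = 5). Both sites past the limit were higher in βTC6. In an intron, chr17:48046094-48046818 held 15.6, 12.9, 18.6, 13.7 and 13.8 normalized reads in βTC6 and 0.140, 2.67, 0.150, 0.682 and 0.867 in αTC1, with αTC1 replicate 2 the highest of its group (log2 fold change 3.20, SE 0.28, adjusted p = 2.44e-09). These αTC1 values stood on 1 to 19 reads. Upstream of the gene, chr17:48080111-48080567 held 14.2 ± 1.39 in βTC6 and 2.19 ± 0.986 in αTC1 (log2 fold change 2.30, SE 0.21, adjusted p = 6.88e-09), and its log2 fold change was 1.88 in replicates 4 and 5. At the Foxp4 TSS, chr17:48060812-48062200 went the other way from the RNA, at 43.0 ± 5.44 in αTC1 and 30.6 ± 5.08 in βTC6, with groups that overlapped (log2 fold change -0.48, SE 0.12, adjusted p = 0.000944). Quantile normalization left it at -0.16 with an adjusted p of 0.281, and replicates 4 and 5 alone gave -0.42 with an adjusted p of 0.109.

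At Foxo1, neighbouring sites in an intron went opposite ways. The sites chr3:52101333-52101771 and chr3:52102310-52103066 were higher in αTC1, the second at 27.0, 31.9, 26.2, 36.2 and 35.7 normalized reads in αTC1 and 7.81, 7.999, 7.57, 7.70 and 3.66 in βTC6. Here βTC6 replicate 5 was far below its group, and the lines did not overlap (log2 fold change -2.05, SE 0.17, adjusted p = 1.5e-09). In replicates 1 to 3 alone the value was -1.73, under the limit of 2, and in replicates 4 and 5 it was -2.54. The first of the pair held 10.3 ± 1.86 and 1.92 ± 1.10 (log2 fold change -2.05, SE 0.28), and -1.62 in replicates 1 to 3. When a library was left out, the smallest changes were -1.76 for the first and -1.87 for the second, both under the limit. Further into the intron, chr3:52105722-52106019 was higher in βTC6, at 6.82, 5.54, 4.86, 5.71 and 6.95 normalized reads against 0.280, 0.421, 0.601, 0.955 and 0.289 in αTC1 (log2 fold change 2.22, SE 0.19, adjusted p = 2.09e-09). The Foxo1 promoter peak chr3:52071632-52073278 held 46.5 ± 7.20 in αTC1 and 31.0 ± 4.96 in βTC6, and the groups overlapped (log2 fold change -0.57, SE 0.12, adjusted p = 0.000282, and adjusted p = 0.114 with quantile normalization). Over the locus, 5 of 10 peaks were higher in αTC1 and 3 in βTC6. Past the fold limit were 3 of the 10, beside 19.1% of the 152 other peaks within 2 Mb.

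Foxo3 had 6 peaks, 2 called in each direction and 2 in neither. None of the Foxo3 peaks was past the fold limit, beside 17.3% of the 127 other peaks within 2 Mb. Its upstream peak chr10:41997194-41998359, among the 3 strongest member peaks, held 76.2, 88.1, 88.2, 80.7 and 91.7 normalized reads in αTC1 and 45.9, 47.6, 50.4, 48.2 and 47.9 in βTC6. The lines did not overlap (log2 fold change -0.81, SE 0.08, adjusted p = 2.02e-08), although Foxo3 expression differed by -0.04. Across the alternatives the value for this peak ran from -0.85 to -0.35. At the TSS, chr10:41996242-41997015 held 31.7 ± 4.01 and 22.3 ± 1.26 (log2 fold change -0.48, SE 0.11, adjusted p = 0.000416). The call was lost in replicates 4 and 5 alone (-0.39, adjusted p = 0.156), and after quantile normalization the value was -0.27 (adjusted p = 0.0262).

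At Foxa2, 13 of 21 peaks were higher in αTC1, 4 higher in βTC6 and 4 in neither. Of them 11 lay in 9030622O22Rik, the neighbouring transcript, which was at 14.9 to 15.1 FPKM in αTC1 and 0.69 to 1.43 FPKM in βTC6 (log2 fold change -3.66, SE 0.19, adjusted p = 3.05e-07). The Foxa2 promoter peak chr2:147871386-147872892 was open in both lines, at 50.0, 53.9, 54.4, 68.2 and 50.0 normalized reads in αTC1 and 44.3, 49.4, 40.4, 55.5 and 34.5 in βTC6. The groups overlapped (log2 fold change -0.31, SE 0.12, adjusted p = 0.0236). Without αTC1 replicate 4, the highest library, the adjusted p was 0.0879, and without βTC6 replicate 3 or 5 it was 0.0574 or 0.0703. In replicates 4 and 5 alone it was 0.146, and quantile normalization turned the fold change to 0.11. The site past the limit, chr2:148014494-148014981, lay 142033 bp upstream at 10.1, 9.83, 7.51, 7.10 and 11.7 in αTC1 and 0.994, 0.615, 0.811, 0.285 and 0.469 in βTC6, with no overlap (log2 fold change -2.64, SE 0.21, adjusted p = 7.84e-10).

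Foxa1 had 4 peaks, of which 3 were higher in βTC6. Their median log2 fold change was 1.56, beside 0.38 over the 112 other peaks within 2 Mb. None of the Foxa1 peaks was past the fold limit, beside 25.9% of those 112. The peak closest to its start, chr12:58647430-58647872, 543 bp upstream, held 8.95, 7.18, 9.32, 6.71 and 10.7 normalized reads in βTC6 and 1.82, 1.55, 0.902, 2.18 and 1.73 in αTC1. The groups did not overlap (log2 fold change 1.86, SE 0.22, adjusted p = 1.47e-07), on 35 to 114 reads in βTC6 and 6 to 16 in αTC1. Foxa3 and Foxm1 had no peak of their own, since the peaks at their starts were annotated to the gene next to them. The Foxm1 start lay inside chr6:128312284-128313414, annotated to Rhno1, at 69.8 ± 11.1 normalized reads in αTC1 and 24.7 ± 6.00 in βTC6 (SD, n = 5; log2 fold change -1.48, SE 0.15, adjusted p = 2.46e-08). The Foxa3 start lay 84 bp from chr7:19608971-19610165, annotated to Sympk. This peak held 45.6 ± 2.90 in αTC1 against 23.0 ± 4.75 in βTC6 (log2 fold change -0.98, SE 0.12, adjusted p = 5.05e-07). That was the other way from Foxa3 expression but the same way as Sympk expression. Sympk was at 86.7 FPKM in αTC1 and 62.8 FPKM in βTC6 (log2 fold change -0.31, edgeR adjusted p = 0.00314). The median log2 fold change over the 3276 peaks of chromosome 7 was -0.57. Which gene this peak acts on was not tested.

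The mixtures were among the samples from which the study formed its consensus peaks but had no part in the test between the lines, and were used to follow the 16 sites past the fold limit as the share of αTC1 cells went from 10% to 90%. Since the sites were chosen because the pure lines differ more than 4-fold there, a blend of the same cells had to follow the share, and the values are given as a description that supports nothing about the members. Of all 11911 peaks past the limit, 11909 went in the direction set by the pure lines, and 97.7% did so with an exact permutation p under 0.05 (two-sided, Pearson's r over the 9 libraries, unadjusted), as did the 16 member sites. By Spearman's rho the share was 96.1% of all these peaks and 15 of the 16 sites, with the Foxa2 site at 0.58 (exact permutation p = 0.108). The size of r had a median of 0.93 over all these peaks and over the member sites alike. Each share had 1 library, so no spread between replicates was available.

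**Figure D5:**
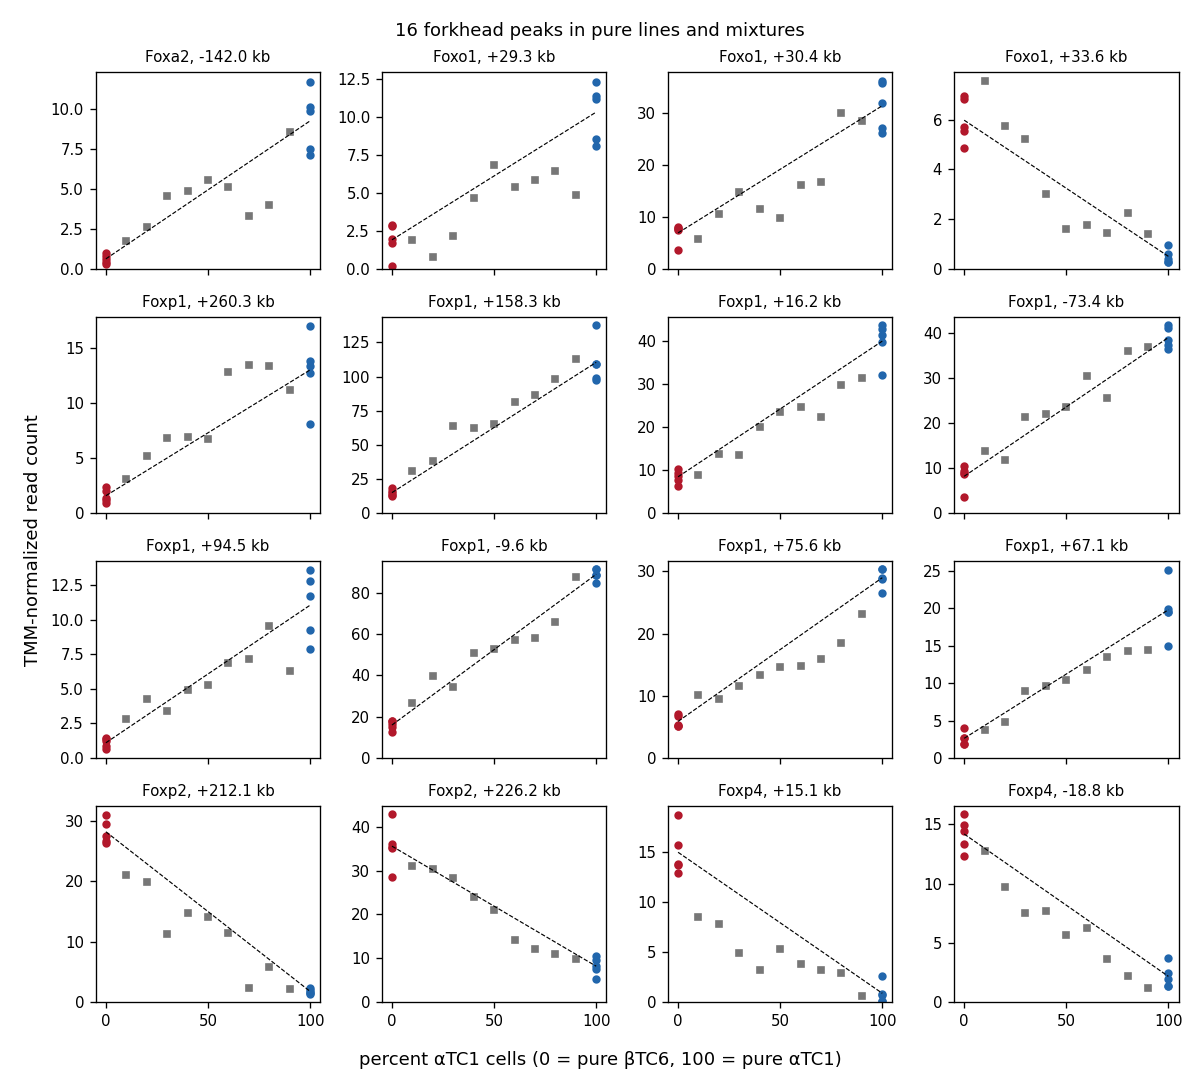
TMM-normalized read counts of the 16 member peaks past the fold limit against percent αTC1 cells, titled by gene and distance from the TSS, with 5 pure βTC6 libraries at 0 (red), 9 mixtures (grey squares) and 5 pure αTC1 libraries at 100 (blue). The dashed line joins the means of the pure lines, and Foxp1 sites climb and Foxp2 and Foxp4 sites fall with the share of αTC1 cells.

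The Foxp1 site chr6:98819623-98820409 went from 30.9 normalized reads at 10% αTC1 through 38.5, 63.9, 62.2, 65.3, 81.3, 86.6 and 97.9 to 112.6 at 90% (r = 0.98, exact permutation p = 1.65e-05, adjusted p = 6.61e-05, rho = 0.98). Without the 10% and 90% mixtures r was 0.96. The Foxp2 site chr6:15361119-15362287 went down at every step, from 31.1 through 30.3, 28.2, 23.9, 21.0, 14.1, 12.1 and 10.9 to 9.96 (r = -0.98, exact permutation p = 5.51e-06, the smallest the 9 libraries can give). The Foxp4 sites fell with r = -0.90 and -0.97, and the Foxp2 site chr6:15347329-15347971 with r = -0.92. The Foxo1 pair rose with r = 0.78 and 0.87 and the third Foxo1 site fell with r = -0.88. The Foxa2 site chr2:148014494-148014981 had r = 0.68 (exact permutation p = 0.0379), and 0.15 without the 10% and 90% mixtures, so its relation rested on those libraries. At the other 15 sites r without them was between 0.75 and 0.98 in size.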

How the data were processed

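ATAC-seq was measured in 5 libraries of each pure line and 9 mixtures, and RNA-seq in 3 libraries of each line, grouped by the labels. Per the labels and the study's methods, the authors used Trimmomatic 0.32 for trimming of ATAC-seq reads, BWA 0.7.9a for alignment to mm9, Picard 1.95 to drop duplicates, MACS2 2.1.0 for peaks of each library, DiffBind 2.2.5 for the consensus set and HOMER 4.6 for annotation. The deposited ATAC-seq signal values are read counts per peak that the authors normalized by TMM with 1 factor per library. All values (100% in each library, tolerance 0.01) were whole multiples of the library's lowest value, from which whole reads were recovered. RNA-seq reads were trimmed with Trim Galore 0.40 and quantified with Bowtie2 and RSEM 1.2.12, and the deposited tables hold the expected counts and FPKM values that the authors obtained. Columns in which the authors class peaks by their own comparison were not used. No column was left without a sample.

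Expected counts were rounded, the 92 ERCC spike-in transcripts (0.436% to 0.971% of counts) were left out, and genes that reached 1 FPKM in every replicate of αTC1 or of βTC6 were tested with edgeR 4.0.16 (quasi-likelihood, TMM, R 4.3.3). The study's RUVSeq step was not run. Peaks were tested with limma 3.58.1 (trend) on log2(normalized read count + 1), without a filter, in the pure lines. Calls needed an FDR under 5% (Benjamini-Hochberg), or that and an absolute log2 fold change over 2. The pseudocount understates the change of low peaks. Exact permutation tests used scipy 1.17.1. Alternatives were DESeq2 1.42.0, other scalings, filters, pseudocounts, a replicate block, replicates 1 to 3 and 4 to 5 apart or as a term (the study's supplementary quality table computes mitochondrial shares on another base in each set) and leaving out each library. No pair of libraries was close enough to be a duplicate (lowest chi-square per degree of freedom 2.06). Intervals and floors cover counting error only.

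All members were named in RNA-seq. Named peaks were the one closest to the start of each member, those past the fold limit (16, of which the 16th by size, the Foxp2 peak at chr6:15361119, enters through the mixtures) and the 3 with the highest mean. Examples from lists were the called genes with the largest fold change at an FPKM of at least 5 in the higher line, at most 4 per list, and Aurkb, Ccnb2, Cat, Foxo4, Foxo6 and the NuRD genes other than Chd4 and Gatad2b were added after their values were seen. Values of some listed genes are not reported here. Members and lists were chosen with earlier results of these data known.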

Additional observations from a re-analysis of the deposited data

Results flagged for a closer look

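In 50 groups of 5 libraries, made of the 25 named peaks in each pure line, 5 had a highest or lowest library whose gap to the nearest other exceeded 0.71 of the group's range. About 1 in 20 groups does so by chance. The gap ratio was 0.758 for the Foxa2 promoter peak chr2:147871386-147872892, where αTC1 replicate 4 held 68.2 normalized reads at a group median of 53.9. It was 0.901 for the Foxo1 intron peak chr3:52102310-52103066, where βTC6 replicate 5 held 3.66 at a median of 7.70. It was 0.717 for the Foxp1 peak chr6:98819623-98820409, where αTC1 replicate 5 held 137 at a median of 109. It was 0.732 for the Foxp1 peak chr6:99051318-99052080, where βTC6 replicate 5 held 3.76 at a median of 8.92. It was 0.713 for the Foxp4 peak chr17:48046094-48046818, where αTC1 replicate 2 held 2.67 at a median of 0.682.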

How the results depend on the processing

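Of the values given for single genes and peaks, 573 kept their direction and their side of the FDR or p threshold under an alternative, 10 lost their call, 1 gained one and 7 changed sign. The fold limit is not part of this tally. The number of members past the fold limit for βTC6 in RNA-seq went from 1 to 2 with no expression filter, where Foxa1 entered, and ranged from 1 to 2 when a library was left out, with Foxp2 entering without βTC6 replicate 3. The 2 were 22.2% of 9 members with no filter, beside 12.8% of all genes. Without that library they were 25.0% of 8, beside 10.2%. In ATAC-seq, 12 peaks (23.5%, beside 35.9% of all peaks) were higher in βTC6 and 34 (66.7%, beside 49.4%) in αTC1 with a mean of at least 10 required, which left 51 member peaks to test. Past the fold limit, βTC6 peaks numbered 1 with a pseudocount of 5 (beside 2.56% of all 65053 peaks), 9 with 0.5 (beside 17.3%), 3 after quantile normalization (beside 8.69%) and 15 with edgeR on recovered reads (beside 21.2%). For αTC1 they numbered, in the same order, 2 (beside 1.26%), 14 (beside 7.11%), 15 (beside 7.88%) and 16 (beside 8.82%). At the FDR alone edgeR called 50397 of all peaks and limma 50741. A larger pseudocount shrinks the fold change of low peaks by construction. Leaving out a library gave 37 to 39 and 46 to 49 peaks higher in βTC6 and αTC1, and 4 to 6 and 8 to 11 past the fold limit. Foxo3 expression turned to 0.1027 without αTC1 replicate 3 and to 0.03 without βTC6 replicate 2, neither called, in a leave-one-out range of -0.1109 to 0.1027. The Foxa2 promoter peak turned to 0.1082 after quantile normalization. The Foxp2 peak at chr6:14849994 turned to -0.02808 in replicates 1 to 3 and was called at 0.5471 after quantile normalization, and that at chr6:15135434 turned to -0.2054 after quantile normalization, -0.0381 in replicates 1 to 3 and -0.03278 without βTC6 replicate 4 (leave-one-out range -0.03278 to 0.1975). The cause was not tested for these changes of sign. ERCC scaling moved the share of RNA-seq calls higher in βTC6 from 51.8% to 59.79%. With the replicate number as a block, RNA-seq gave 3 members in each direction, beside 37.9% of all genes higher in βTC6 and 35.2% in αTC1. ATAC-seq gave 40 peaks higher in βTC6 (beside 40.1% of all peaks) and 48 in αTC1 (beside 38.5%). Past the fold limit it gave 5 (beside 12.9%) and 11 (beside 5.38%). Libraries of the same number did not deviate together (correlations of -0.0401 to 0.0246 in RNA-seq and -0.0019 to 0.069 in ATAC-seq), so the numbers pair nothing. Depth limited Foxa1, Foxa3 and the lowest peaks, where a line held few reads.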

Other observations

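Against the straight line between the means of the pure lines, the mixtures lay unevenly around it. All 9 mixtures were above it at the Foxp1 peak chr6:98819623-98820409, and 0 of 9 at the Foxp1 peak chr6:98961667-98962417, the Foxp2 peak chr6:15347329-15347971 and both Foxp4 peaks past the fold limit. At the other sites past the limit 1 to 7 of the 9 lay above it. These counts were not tested, and the same counts over all peaks past the limit were not computed.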
